A study of Mus musculus with 6 samples.

Results

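The elastic fibre and fibulin genes are 10 genes taken by symbol from the 24413 gene rows of the deposited table: Eln, Fbn1, Fbn2, Mfap2, Mfap5, Mfap4, Fbln5, Efemp2, Fbln1 and Fbln2. All 10 were found and all 10 passed the filter on low values (a mean signal of at least 1), which left 12550 genes to test. RNA-seq was done on testicular interstitial cells named W-EGFP, taken from E16.5 fetuses of FLE-EGFP mice, whose EGFP is driven by the fetal Leydig enhancer of Nr5a1. One group received SAG, an agonist of the Hedgehog signal transducer Smoothened, at 0.5 µM for 1 hour, and the other received the vehicle DMSO for as long. Each group had 3 libraries of 10000 cells, and both groups came from the same reporter line. In the table the columns of either group contain the word "siCnt", for which the labels hold no explanation. Whether replicates come from separate cultures or mice is not stated, and the spread that the p-values are set against may therefore be technical.

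Elastic fibres give extracellular matrix its recoil. Their core is elastin, secreted as soluble tropoelastin, which is laid down on microfibrils built from fibrillins, guided by short fibulins and cross-linked by lysyl oxidases. The small glycoproteins of the MFAP group decorate the microfibrils, and the longer fibulins link them to fibronectin and basement membranes. In the testis elastic fibres are known from vessel walls and, in humans, from the boundary tissue of the seminiferous tubules.

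The SAG libraries held 7694479 to 8804335 reads and the DMSO libraries 18486396 to 25491259, so that the mean DMSO depth was 2.67 times the mean SAG depth. Depth thus went with treatment, and a difference in library handling between the groups cannot be told apart from the treatment. The values are the deposited signal, which is named CPM but sums to 932712 to 1055620 per library. Gli1, the transcription factor gene that Hedgehog signalling induces, was at 32.6, 46.3 and 30.8 in SAG replicates 1 to 3, against 0.704, 0.324 and 0.846 in DMSO replicates 1 to 3. SAG replicate 3 stood apart: the mean chi-square per gene between its reads and those of SAG replicates 1 and 2 was 38.3 and 42.5, against 6.47 between SAG replicates 1 and 2 and 4.40 to 5.34 between DMSO libraries. For genes that vary beyond counting noise this measure grows with depth, so SAG and DMSO values are not on equal terms. Reads on Rn45s, a ribosomal RNA precursor gene, were 1.67% of SAG replicate 3 and 0.326% to 0.360% of the other 5 libraries. The part of this in the results was not tested. Results that rest on SAG replicate 3 are given with and without it. Over all tested genes the log2 fold change had a median of -0.03. With scaling by library total that median was 0.10, and 66.3% of called genes were higher, where 43.8% were higher as reported. Cell type markers also differed between the groups. Over all tested genes 12.9% rose and 16.6% fell, by the calls described below. Of 13 tested smooth muscle markers (peritubular myoid and vascular) 2 rose and 11 fell, and their summed signal was 14927 to 16743 with SAG and 23693 to 24774 with DMSO, with none of the 15 listed genes at 0 in every library. Of 12 markers of interstitial mesenchyme 10 rose and 1 fell, and their sum was 24742, 28379 and 47995 in SAG replicates 1 to 3 and 19408 to 20816 in the DMSO libraries; none was at 0. Most of that sum was the collagens Col1a1 and Col3a1, and the other 10, split off after their values were seen, summed to 1257, 1424 and 1501 in SAG replicates 1 to 3 and to 606 to 629 in the DMSO libraries. Markers of fetal Leydig cells (1 rose and 0 fell of 3 tested; summed signal 23.0, 19.0 and 116 in SAG replicates 1 to 3 and 32.3 to 33.3 with DMSO, with Lhcgr at 0 and Cyp17a1 at no more than 7 reads), Sertoli cells (0 and 0 of 5; 40.0 to 43.8 and 44.4 to 48.4), endothelium (0 and 1 of 5; 71.7 to 106 and 125 to 130) and surface epithelium (0 and 3 of 5; 11.8 to 13.1 and 19.4 to 30.8) were low. Germ cell, macrophage and erythroid markers summed to at most 3.41 in every library, with Pou5f1, Dppa3, Nanos2, C1qc, Fcgr1 and Hbb-bs among those at 0. In these bulk samples fewer cells of a type and less RNA per cell cannot be told apart, and the part of the cell types in the results below was not tested.

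With SAG, 5 of the 10 genes rose (Eln, Fbln1, Mfap2, Mfap4 and Fbn2), 3 fell (Mfap5, Fbln2 and Fbn1) and 2 were not called (Fbln5 and Efemp2). Calls were made in limma, a linear model of log2(signal + 1), where the Benjamini-Hochberg adjusted p over all tested genes was under 0.05, and 29.6% of tested genes were called, 12.9% as higher and 16.6% as lower. On the recovered reads edgeR's quasi-likelihood test called the same number of the 10, 8, against 29.9% of all genes, and DESeq2 also called 8, against 32.7%. The median log2 fold change over the 10 genes was 0.21, against -0.03 over all tested genes. In 3 classes, grouped by role, members moved in opposite directions. Of the fibrillins Fbn1 fell and Fbn2 rose, and of the long fibulins Fbln2 fell and Fbln1 rose. Of the microfibril-associated proteins Mfap5 fell while Mfap2 and Mfap4 rose. The SAG and DMSO libraries did not overlap for 9 of the 10 genes, all but Fbln5; 5 were wholly above and 4 wholly below, where 48% of tested genes were apart in this way, 21.2% above and 26.8% below. The counts of 5 higher and 3 lower were the same with scaling by library total, where 2477 of all 12555 tested genes were higher and 1259 lower. Without SAG replicate 3 there were 5 higher and 4 lower, with Efemp2 added, while 46.6% of the genes tested were called.

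**Figure D1:**
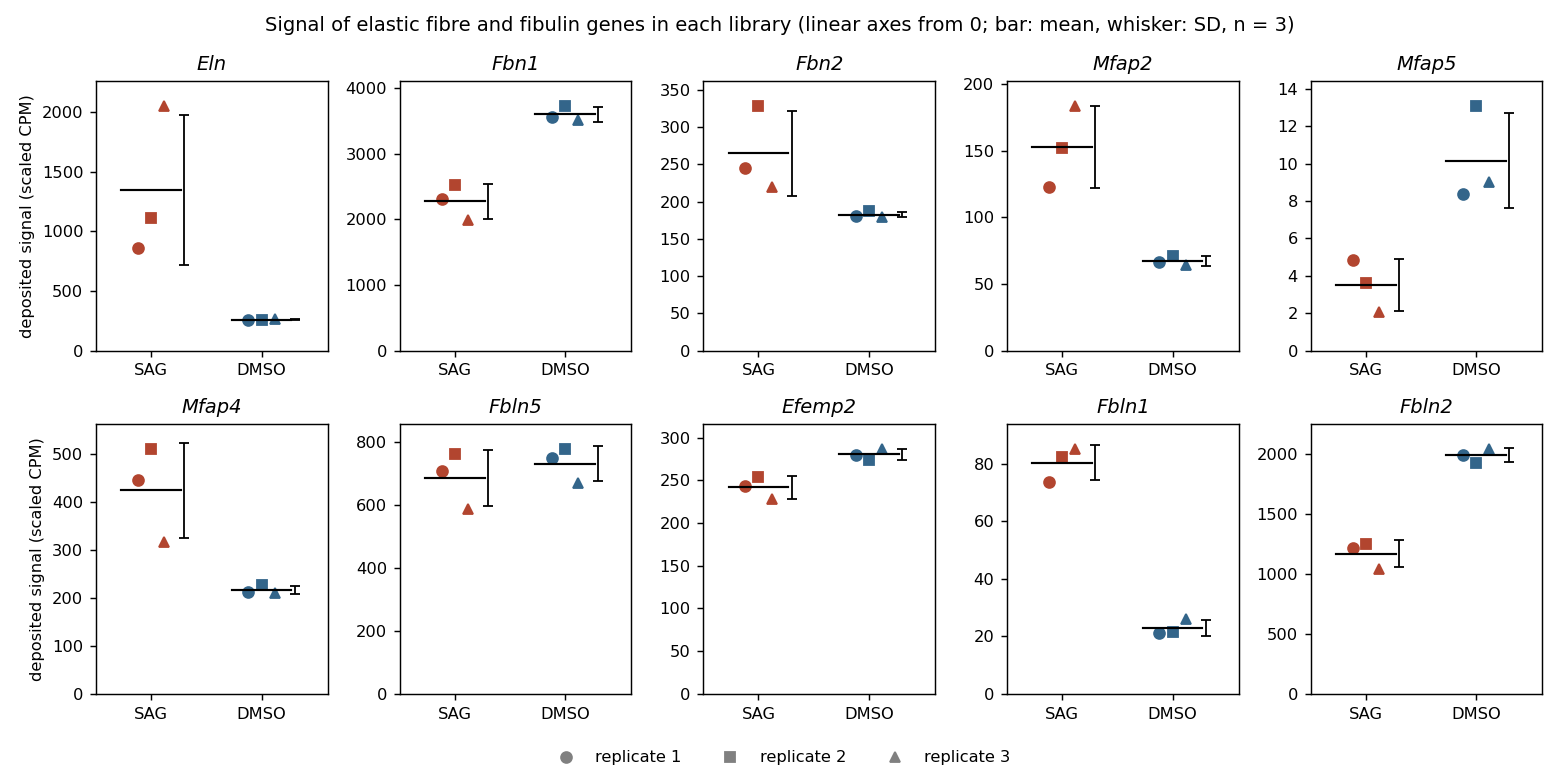
Deposited signal of the 10 genes in each library, with the SAG libraries on the left of each panel and the DMSO libraries on the right; symbols mark replicates 1 to 3, bars the mean and whiskers the SD (n = 3). The groups overlap in the panel of Fbln5 only, and the triangle of SAG replicate 3 is the highest SAG value for Eln, Mfap2 and Fbln1 and the lowest for the other 7 genes.

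Before the RefSeq start, Mfap2 and Fbln1 hold a short stretch related to the binding sequence of the GLI factors. Fbln5 and Efemp2 do not hold it. For these 4 genes, whose 250-base windows held a match or no annotated exon, stretches before that start are shown. They come from the 250 bases before the start in RefSeq annotation of GRCm38.p6, 5′ to 3′ on the gene's strand: Fbln1 at chr15:85205699-85205948 (plus strand), Fbln5 at chr12:101819120-101819369 (minus strand) and Efemp2 at chr19:5473696-5473945 (plus strand) in full, none of which overlaps an annotated exon, and Mfap2 as 27 bases at chr4:141010462-141010488 (plus strand) around the match. Capitals mark CCACCCA or its reverse complement TGGGTGG.
Mfap2: ctctgggctcTGGGTGGagaggtatct
Fbln1: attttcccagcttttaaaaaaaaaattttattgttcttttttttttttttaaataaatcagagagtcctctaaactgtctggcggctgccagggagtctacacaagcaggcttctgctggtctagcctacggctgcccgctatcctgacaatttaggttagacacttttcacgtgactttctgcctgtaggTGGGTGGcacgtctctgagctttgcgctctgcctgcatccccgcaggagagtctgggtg
Fbln5: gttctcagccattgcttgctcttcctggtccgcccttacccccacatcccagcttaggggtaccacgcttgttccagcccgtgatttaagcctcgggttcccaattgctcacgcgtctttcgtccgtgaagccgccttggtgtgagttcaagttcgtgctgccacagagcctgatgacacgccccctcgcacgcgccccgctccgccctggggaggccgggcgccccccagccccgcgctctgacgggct
Efemp2: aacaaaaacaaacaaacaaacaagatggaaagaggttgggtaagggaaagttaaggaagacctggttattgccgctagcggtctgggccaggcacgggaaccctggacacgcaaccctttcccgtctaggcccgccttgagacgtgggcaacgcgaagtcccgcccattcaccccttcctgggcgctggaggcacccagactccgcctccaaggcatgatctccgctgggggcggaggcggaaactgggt

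The stretch CCACCCA lies within the GLI consensus GACCACCCA. It was found once in the 250-base window of Mfap2, its first base 209 bases before the RefSeq start. In the Fbln1 window it was found once, 59 bases before the RefSeq start. Both were on the opposite strand as TGGGTGG. With both strands searched CCACCCA was in 2 of the 6 windows read and in 8.16% of the 27025 windows of all genes. The full consensus GACCACCCA was in 0 of the 6 and in 0.211% of all windows. The 6 windows were those of the 4 genes above and of Fbn1 and Fbln2, which fell; Eln, Fbn2, Mfap4 and Mfap5 were not analysed here. The windows of Fbn1 and Fbln2 lie wholly, and 96 of the 250 bases of the Mfap2 window, within exons annotated by GENCODE. GENCODE starts Mfap2 at 141010418, ahead of this window (141010431 to 141010680), so the Mfap2 match lies inside the gene as annotated there. The GC box GGGCGG was in 5 of the 6 windows, all but that of Fbln1, against 32.9% of all, and the TATA sequence TATAAA was in 0 of the 6, against 13.0% of all. These windows held 46.4% (Fbln1) to 68.8% (Mfap2) G and C, against a median of 52.0% over all windows. A match is a stretch of letters and not a site shown to be bound. The stretches shown were chosen partly by the match itself, so they cannot relate it to the calls.

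Elastin showed the largest rise of the 10. Eln (chromosome 5, 134702593 to 134747323 on the minus strand of GRCm38) encodes tropoelastin, the precursor of the fibre core. Eln reached 862, 1112 and 2054 in SAG replicates 1 to 3, against 257, 255 and 265 in DMSO replicates 1 to 3. Each SAG library was at least 3 times each DMSO library, and the SAG libraries were themselves spread, with replicate 3 well above replicates 1 and 2. The means were 1343 ± 629 with SAG and 259 ± 5.28 with DMSO (SD, n = 3 each), a 5.18-fold rise (log2 fold change 2.27, SE 0.26; limma, Benjamini-Hochberg adjusted p = 0.000319), larger than that of 99.6% of tested genes in either direction. Without SAG replicate 3 the rise was 3.81-fold (log2 fold change 1.91). In SAG replicate 3 the summed signals of fetal Leydig markers (116) and of the collagens among the mesenchyme markers (46494, against 23484 and 26954 in SAG replicates 1 and 2) were also the highest, that of the other mesenchyme markers was little above SAG replicate 2, and that of smooth muscle markers was the lowest.

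The fibrillins form the backbone of the microfibril. Fbn1 (chromosome 2, 125300594 to 125507993, minus strand) encodes the main fibrillin, the gene mutated in human Marfan syndrome. Fbn1 was measured at a signal of 2311, 2522 and 1995 in SAG replicates 1 to 3, against 3558, 3731 and 3506 in DMSO replicates 1 to 3. No SAG library reached a DMSO library. Fbn1 averaged 2276 ± 265 with SAG and 3598 ± 117 with DMSO, 1.58-fold lower (log2 fold change -0.67, SE 0.11; limma, Benjamini-Hochberg adjusted p = 0.00274). Fbn2 (chromosome 18, 58008623 to 58210487, minus strand) encodes the fibrillin best known from developing tissue. It had signals of 245, 329 and 220 with SAG, against 181, 187 and 180 with DMSO. The SAG libraries were all higher, but replicate 3 only by a little. Fbn2 averaged 264 ± 57.0 with SAG and 183 ± 4.10 with DMSO, a 1.45-fold rise (log2 fold change 0.51, SE 0.14; limma, Benjamini-Hochberg adjusted p = 0.0238). That call was lost without DMSO replicate 1, 2 or 3 (adjusted p = 0.0893, 0.0741 and 0.0930 in limma) and with limma without trend (0.0509), at log2 fold changes of 0.50 to 0.53. Exons of Fbn1 share 20.1% of their length with Gm9913 on the opposite strand, and those of Eln and Fbn2 share 3.30% with Gm30003 and 0.976% with Gm26507. The strand setting of the counting is not given in the sources used here, so reads from these overlaps cannot be told apart; the overlapping genes were not analysed here.

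The microfibril-associated glycoproteins bind fibrillins. Mfap2 (chromosome 4, 141010418 to 141015984, plus strand) encodes MAGP-1. Mfap2 was measured at 123, 152 and 184 in SAG replicates 1 to 3, against 66.7, 71.3 and 64.2 in DMSO replicates 1 to 3. The lowest SAG library was well above the highest DMSO library. Mfap2 averaged 153 ± 30.5 with SAG and 67.4 ± 3.62 with DMSO, a 2.27-fold rise (log2 fold change 1.16, SE 0.14; limma, Benjamini-Hochberg adjusted p = 0.000528). Its relative Mfap5 (chromosome 6, 122505845 to 122529290, plus strand) encodes MAGP-2 and was the rarest of the 10, with 44, 34 and 16 reads in the SAG libraries and 202, 283 and 160 reads in the deeper DMSO libraries. As signal these were 4.83, 3.60 and 2.06 with SAG, against 8.37, 13.1 and 9.02 with DMSO. The groups were apart, and both were spread. Mfap5 averaged 3.50 ± 1.39 with SAG and 10.2 ± 2.55 with DMSO, 2.90-fold lower (log2 fold change -1.34, SE 0.26; limma, Benjamini-Hochberg adjusted p = 0.00517). At these low levels the pseudocount of 1 shrinks the log2 value, which was -1.56 with a pseudocount of 0.1. Without SAG replicate 3 Mfap5 was 2.41-fold lower (log2 fold change -1.08 with the pseudocount of 1).

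Mfap4 (chromosome 11, 61485431 to 61488900, plus strand) encodes a fibrinogen-related protein that binds tropoelastin and microfibrils. Its signal was 445, 511 and 317 with SAG, against 213, 226 and 211 with DMSO. All SAG libraries were higher, replicate 3 least so. Mfap4 averaged 424 ± 98.3 with SAG and 216 ± 8.03 with DMSO, a 1.96-fold rise (log2 fold change 0.94, SE 0.16; limma, Benjamini-Hochberg adjusted p = 0.00246). The 89 exon bases it shares with Mapk7 on the opposite strand are 4.63% of its exon length, and Mapk7 had 341 to 484 reads in the SAG libraries, where Mfap4 had 2471 to 4822.

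The short fibulins that carry elastin onto the microfibril were not called. Fbln5 (chromosome 12, 101746565 to 101819055, minus strand) encodes fibulin-5, which tethers tropoelastin to microfibrils and cells and whose loss in mice leaves the skin loose. Its signal was 710, 764 and 589 in SAG replicates 1 to 3, against 749, 780 and 670 in DMSO replicates 1 to 3. The groups overlapped. The means were 688 ± 89.5 with SAG and 733 ± 56.8 with DMSO, a log2 fold change of -0.10 with a 95% confidence interval from -0.36 to 0.17 (limma, Benjamini-Hochberg adjusted p = 0.571). The sign of this value turned with scaling by library total (0.05), with length and GC trends removed (0.04) and without SAG replicate 3 (0.01). Efemp2 (chromosome 19, 5473954 to 5482517, plus strand) encodes fibulin-4, which brings lysyl oxidase to elastin and without which mice do not form elastic fibres. It had signals of 243, 254 and 228 with SAG, against 280, 274 and 287 with DMSO. Each SAG library lay below each DMSO library, by a small margin. The means were 242 ± 12.5 with SAG and 280 ± 6.77 with DMSO, a log2 fold change of -0.21 with a 95% confidence interval from -0.42 to -0.01 (limma, Benjamini-Hochberg adjusted p = 0.101). It was called without SAG replicate 3 (log2 fold change -0.18, adjusted p = 0.0322 in limma) and with length and GC trends removed (-0.29, 0.0225), and was at -0.07 (0.609) with scaling by library total. Its exons share 4.57% of their length with Mus81 on the opposite strand, which had 128 to 182 reads in the SAG libraries, where Efemp2 had 1779 to 2393.

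The long fibulins bind fibronectin, nidogens and other basement membrane proteins. Fbln1 (chromosome 15, 85205949 to 85286535, plus strand) encodes fibulin-1, also a cofactor of the protease ADAMTS1. Its reads were 670, 776 and 663 in the SAG libraries and 506, 462 and 461 in the DMSO libraries, more in SAG despite the lower depth. As signal these were 73.6, 82.2 and 85.2 with SAG, against 21.0, 21.4 and 26.0 with DMSO. Its SAG libraries lay closer together than those of any other gene among the 5 that rose, with a coefficient of variation of 7.48%, against 12.3% over the DMSO libraries. Fbln1 averaged 80.3 ± 6.01 with SAG and 22.8 ± 2.80 with DMSO, a 3.53-fold rise (log2 fold change 1.78, SE 0.12; limma, Benjamini-Hochberg adjusted p = 2.75e-05). Fbln2 (chromosome 6, 91212455 to 91272540, plus strand) encodes fibulin-2, found in vessel walls and basement membranes. It had signals of 1219, 1249 and 1044 with SAG, against 1998, 1928 and 2046 with DMSO. The highest SAG library was far below the lowest DMSO library. Fbln2 averaged 1171 ± 111 with SAG and 1991 ± 59.2 with DMSO, 1.70-fold lower (log2 fold change -0.77, SE 0.10; limma, Benjamini-Hochberg adjusted p = 0.000827).

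**Figure D2:**
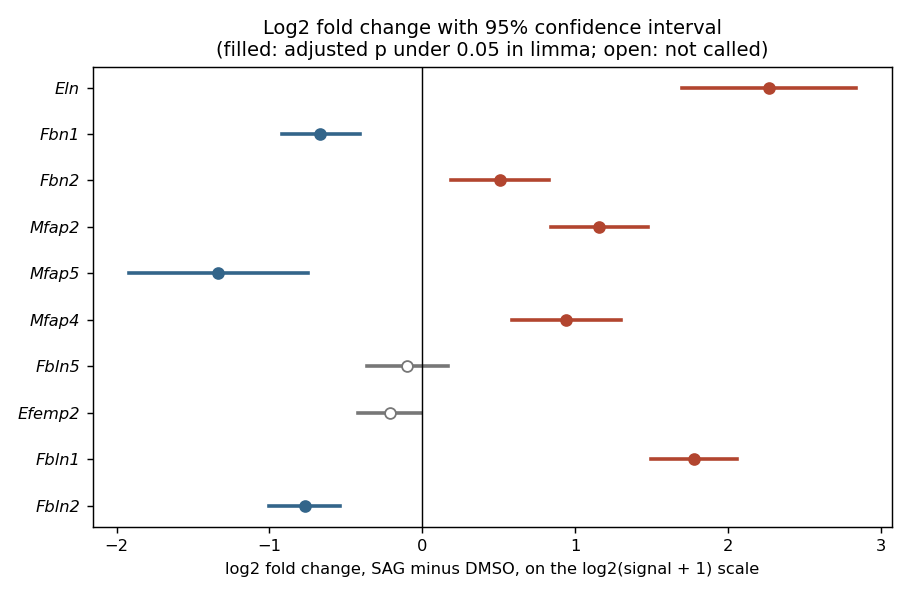
Log2 fold change of the 10 genes, SAG minus DMSO, from log2(signal + 1), with its 95% confidence interval from limma; filled points were called at an adjusted p under 0.05 and open points were not. The values run from -1.34 for Mfap5 to 2.27 for Eln, the interval of Fbln5 spans 0 and that of Efemp2 ends at -0.01.

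Spread between the SAG libraries was uneven over the genes. The coefficient of variation of the signal over the SAG libraries ran from 5.19% for Efemp2 to 46.8% for Eln, and over the DMSO libraries from 2.04% for Eln to 25.1% for Mfap5. SAG replicate 3 had the highest SAG signal for Eln, Mfap2 and Fbln1, and the lowest for Fbn1, Fbn2, Mfap5, Mfap4, Fbln5, Efemp2 and Fbln2. With each library left out in turn Eln was 3.81-fold to 6.11-fold higher, Mfap2 2.04-fold to 2.50-fold, Mfap4 1.76-fold to 2.21-fold and Fbln1 3.39-fold to 3.80-fold. Fbn1 was 1.49-fold to 1.67-fold lower, Fbln2 1.61-fold to 1.76-fold and Mfap5 2.41-fold to 3.59-fold. Removing any 1 library left the calls of these 7 genes in place.

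Levels between genes were compared per length, as signal per kilobase of the longest coding transcript. In SAG libraries the order of mean signal per kilobase was Eln (348 ± 163), Mfap4 (246 ± 57.1), Fbln2 (245 ± 23.1), Fbn1 (190 ± 22.1), Mfap2 (143 ± 28.4), Fbln5 (118 ± 15.4), Efemp2 (91.7 ± 4.76), Fbn2 (23.9 ± 5.16), Fbln1 (22.0 ± 1.64) and Mfap5 (2.32 ± 0.924). In DMSO libraries it was Fbln2 (416 ± 12.4), Fbn1 (301 ± 9.81), Fbln5 (126 ± 9.74), Mfap4 (126 ± 4.66), Efemp2 (106 ± 2.57), Eln (67.2 ± 1.37), Mfap2 (62.8 ± 3.37), Fbn2 (16.4, 17.0 and 16.3 in replicates 1 to 3), Mfap5 (6.74 ± 1.70) and Fbln1 (6.22 ± 0.766). Eln was at the top of the mean order with SAG and at position 6 with DMSO, but its top place rested on SAG replicate 3. Mfap4 was above Eln in SAG replicates 1 (258 against 224) and 2 (297 against 289), and without SAG replicate 3 Eln averaged 256, behind Mfap4 (277) and Fbln2 (258). Neighbours whose libraries overlapped, and so did not differ beyond their spread, were Eln and Mfap4, Mfap4 and Fbln2, Fbn1 and Mfap2, Mfap2 and Fbln5, and Fbn2 and Fbln1 with SAG, and Fbln5 and Mfap4, Eln and Mfap2, and Mfap5 and Fbln1 with DMSO. Its place also depends on the length used: per kilobase of all annotated exons it was 166 with SAG, below Mfap4 (221), Fbn1 (188) and Fbln2 (184).

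As a share of the summed signal per kilobase of the 10 genes, Eln made up 17.2%, 19.5% and 35.4% in SAG replicates 1 to 3, against 5.42%, 5.32% and 5.62% in DMSO replicates 1 to 3. The shares of the most abundant DMSO members, Fbln2 and Fbn1, were lower with SAG. Fbn1 held 14.8%, 14.2% and 11.1% with SAG, against 24.2%, 25.0% and 23.9% with DMSO, and Fbln2 19.5%, 17.6% and 14.5% with SAG, against 34.0%, 32.3% and 34.9% with DMSO. The sum per kilobase was 1304, 1480 and 1506 with SAG, against 1230, 1247 and 1225 with DMSO. The summed signal of the 10 genes, not divided by length and so weighted to long genes, went the other way, with 6236, 6977 and 6719 with SAG, against 7332, 7486 and 7263 with DMSO.

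**Figure D3:**
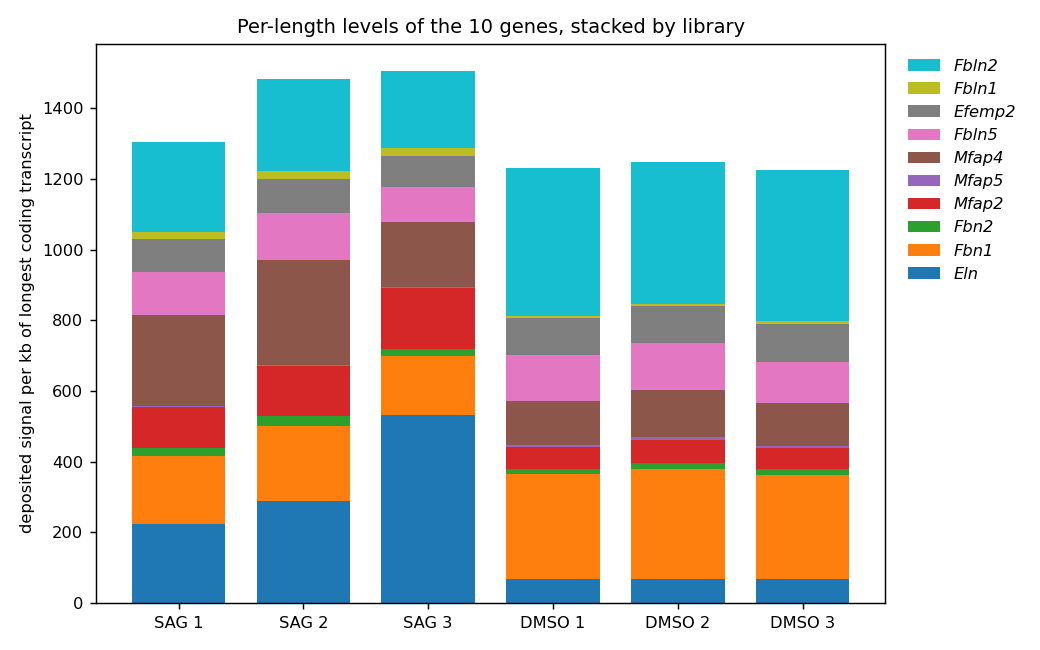
Deposited signal per kilobase of the longest coding transcript, stacked over the 10 genes, in SAG replicates 1 to 3 and DMSO replicates 1 to 3. The Eln block is 224, 289 and 533 in the SAG libraries and 66.6, 66.3 and 68.8 in the DMSO libraries, while the Fbln2 and Fbn1 blocks are smaller with SAG.

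Ratios between related genes within a library do not depend on how libraries are scaled to each other, apart from the pseudocount. Per kilobase, Fbn2 stood at 11.5%, 14.1% and 12% of Fbn1 in SAG replicates 1 to 3, against 5.52%, 5.44% and 5.55% in DMSO replicates 1 to 3. Mfap5 stood at 2.79%, 1.69% and 0.794% of Mfap2 with SAG, against 8.93%, 13.1% and 10% with DMSO. Fbln1 stood at 7.90%, 8.61% and 10.7% of Fbln2 with SAG, against 1.37%, 1.45% and 1.66% with DMSO. In each of these 3 pairs the groups were apart. This had to be so, because Fbn2, Mfap2 and Fbln1 were wholly higher with SAG and Fbn1, Mfap5 and Fbln2 wholly lower. The separation of these ratios, and with it their permutation p below, was therefore fixed by the single genes and adds no separate evidence. Fbln5 stood at 132%, 136% and 116% of Efemp2 with SAG, against 121%, 129% and 105% with DMSO, and the groups overlapped; without SAG replicate 3 they were apart. The difference in log2 ratio of (signal + 1), SAG minus DMSO, was 1.18 for Fbn2 over Fbn1, -2.49 for Mfap5 over Mfap2, 2.55 for Fbln1 over Fbln2 and 0.12 for Fbln5 over Efemp2, which was 0.19 without SAG replicate 3 and 0.04 without DMSO replicate 3. The exact two-sided permutation p was 0.1 for the 3 pairs that were apart, the smallest that 3 against 3 libraries can give, and 0.4 for Fbln5 over Efemp2. Adjusted over the 4 ratios by Benjamini-Hochberg, the exact permutation p was 0.133 for those 3 and 0.4 for the last, so no ratio could pass a threshold of 0.05 in this design.

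**Figure D4:**
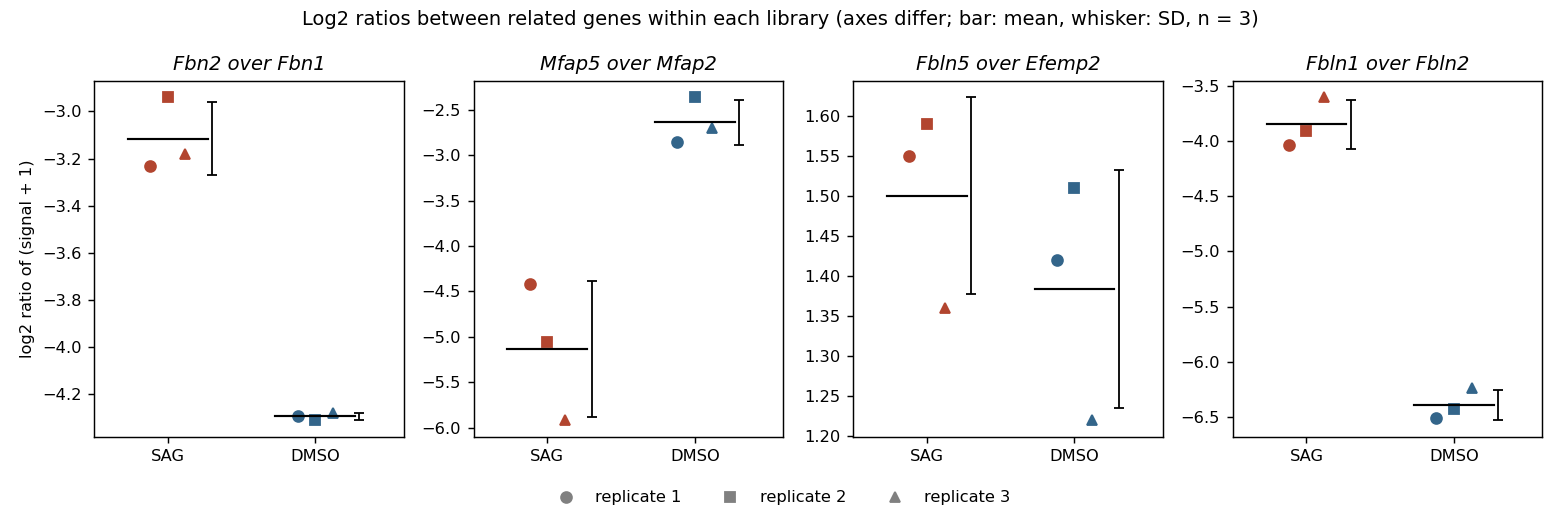
Log2 ratio of (signal + 1) between related genes within each library, SAG libraries left and DMSO libraries right in each panel; symbols mark replicates 1 to 3, bars the mean and whiskers the SD (n = 3), and the axes differ between panels. Fbn2 over Fbn1 averages -3.12 with SAG and -4.29 with DMSO, Mfap5 over Mfap2 -5.13 and -2.64, Fbln5 over Efemp2 1.50 and 1.38, and Fbln1 over Fbln2 -3.85 and -6.39.

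Other genes of elastic fibre assembly, from a list of 47 genes in the table, moved in both directions. Of the 42 that passed the filter 10 rose, 12 fell and 20 were not called, with a median log2 fold change of -0.09; over all tested genes 12.9% rose and 16.6% fell. With scaling by library total 15 rose and 8 fell, 65.2% of the called genes being higher, close to the 66.3% over all genes. Without SAG replicate 3 there were 17 higher and 15 lower, where 46.6% of all genes were called. The 5 under the filter were Emilin3, Mmp9, Mmp12, Ctss and Elane, and the elastase genes Mmp12 and Elane had 0 reads in every library.

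The lysyl oxidases cross-link elastin and collagen. Of 6 genes for these enzymes and their copper supply 4 fell and 0 rose, against 16.6% and 12.9% of all tested genes. With scaling by library total 2 fell and 1 rose, where 1259 of all 12555 tested genes fell and 2477 rose. Without SAG replicate 3 there were 4 lower and 2 higher, where 3373 of all 12512 tested genes were lower and 2463 higher. Loxl2 had signals of 1727, 1605 and 1369 with SAG, against 2828, 2960 and 2738 with DMSO, 1.81-fold lower. Loxl4 was at 19.4, 17.4 and 13.0 with SAG, against 40.3, 43.2 and 42.9 with DMSO, 2.54-fold lower. The groups were apart for both genes, at limma Benjamini-Hochberg adjusted p-values of 0.0007 for Loxl2 and 0.000385 for Loxl4. Lox itself averaged 1316 ± 163 with SAG and 1868 ± 24.2 with DMSO (log2 fold change -0.51; limma, Benjamini-Hochberg adjusted p = 0.00883), a call lost without DMSO replicate 1 (0.0516) and with scaling by library total (0.0514). Loxl3 was called at a log2 fold change of -0.37 (limma, Benjamini-Hochberg adjusted p = 0.0454), and that call was lost without any 1 library other than SAG replicate 3 (0.105 to 0.157) and with both read-count models. Loxl1, also an oxidase known to act on elastin in mice, was higher on average with SAG (737 ± 93.5) than with DMSO (607 ± 13.7). Loxl1 was not called (limma, Benjamini-Hochberg adjusted p = 0.0903). It was called without SAG replicate 3 (log2 fold change 0.36, adjusted p = 6.01e-05 in limma) and with scaling by library total (0.41, 0.0303). On the recovered reads DESeq2 called Loxl1 (adjusted p = 0.0392) and edgeR did not (0.0596). With length and GC trends removed its log2 fold change was -0.03 (limma, adjusted p = 0.846). Atp7a, the copper pump that loads these enzymes, was at 61.0 ± 7.81 with SAG and 51.9 ± 6.09 with DMSO (limma, Benjamini-Hochberg adjusted p = 0.230). It was called without SAG replicate 3 (log2 fold change 0.33, adjusted p = 0.00848 in limma) and with length and GC trends removed (0.44, 0.0210).

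Among other microfibril-associated proteins 4 of 15 tested rose and 3 fell, against 12.9% and 16.6% of all tested genes. With scaling by library total 7 rose and 3 fell, where 2477 of all 12555 tested genes rose and 1259 fell. Without SAG replicate 3 there were 8 higher and 4 lower, where 2463 of all 12512 tested genes were higher and 3373 lower. Latent TGF-beta binding proteins sit on microfibrils: Ltbp4, which in mice also guides elastin assembly, rose 2.13-fold, with signals of 858, 1097 and 1261 with SAG, against 499, 524 and 485 with DMSO. Ltbp2 had 697, 818 and 723 with SAG, against 1571, 1522 and 1430 with DMSO, 2.02-fold lower. Ltbp1 averaged 515 ± 18 with SAG and 790 ± 15.6 with DMSO, 1.53-fold lower. Within this family the called genes thus went both ways. Adamtsl2, a secreted protein that binds fibrillin-1, rose 4.66-fold (30.9, 39.7 and 34.9 with SAG, against 5.96, 8.92 and 7.78 with DMSO). Emilin1, found between elastin and microfibrils, averaged 488 ± 48.8 with SAG and 283 ± 10.4 with DMSO, a 1.73-fold rise (log2 fold change 0.78, and 0.50 with length and GC trends removed). Adamtsl4, which also binds fibrillin-1, rose 1.84-fold, and Vcan, the large proteoglycan versican, was 1.91-fold lower, with 147, 155 and 76.6 with SAG, against 243, 241 and 240 with DMSO. For these 7 genes the limma Benjamini-Hochberg adjusted p was at most 0.0103, and removing any 1 library left each call in place.

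Among genes for the fibronectin scaffold and cell receptors 3 of 8 rose and 3 fell, against 12.9% and 16.6% of all tested genes. The integrin chain genes Itga8 and Itgb3 rose. Itga8 averaged 174 ± 35.0 with SAG and 58.0 ± 2.72 with DMSO, and Itgb3 68.6 ± 8.46 with SAG and 27.8 ± 2.74 with DMSO. Itga9 rose 1.57-fold. Itgav averaged 129 ± 5.51 with SAG and 367 ± 11 with DMSO, 2.83-fold lower. Itga5 and Itgb1, the chains of the classical fibronectin receptor, were 1.82-fold and 1.45-fold lower. For these 6 genes the limma Benjamini-Hochberg adjusted p was at most 0.00770. Fn1, fibronectin itself, was measured at 13853, 15072 and 6566 in SAG replicates 1 to 3, against 16789, 17803 and 16528 in DMSO replicates 1 to 3, and was not called (log2 fold change -0.62; limma, Benjamini-Hochberg adjusted p = 0.115). SAG replicate 3 was far below the others here, and without it Fn1 was called at a log2 fold change of -0.24 (limma, adjusted p = 0.00564).

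Other fibulins and their partners were few. Hmcn1, which encodes the very large fibulin hemicentin-1, rose 1.61-fold, with 214, 278 and 164 with SAG, against 127, 150 and 131 with DMSO (limma, Benjamini-Hochberg adjusted p = 0.0199). The call was lost without SAG replicate 1, DMSO replicate 1 or DMSO replicate 3 (0.0567, 0.0861 and 0.0787), and its log2 fold change of 0.65 was 1.02 with length and GC trends removed. Fbln7 rose 1.90-fold to 7.38 ± 1.47 with SAG, against 3.88 ± 0.360 with DMSO (limma, Benjamini-Hochberg adjusted p = 0.0150), a call lost without DMSO replicate 1 (0.0517) or DMSO replicate 2 (0.0690). Efemp1, which encodes fibulin-3, was at 1.42 ± 0.879 with SAG and 1.89 ± 0.420 with DMSO. Adamts1, the protease for which fibulin-1 is a cofactor, rose 2.59-fold, with 221, 228 and 173 with SAG, against 79.5, 78.3 and 82.7 with DMSO (limma, Benjamini-Hochberg adjusted p = 9.06e-05). It was the only called gene of the 4 proteases tested, where 29.6% of all tested genes were called. Mmp2 and Ctsk had log2 fold changes of -0.13 and -0.34, and Ctsl averaged 583 ± 71.1 with SAG and 582 ± 27.9 with DMSO. Mmp2 was called without SAG replicate 3 (limma, adjusted p = 0.0415) and had a log2 fold change of 0.02 with scaling by library total. Of the nidogens, basement membrane partners of the fibulins, Nid1 was 1.40-fold lower (limma, Benjamini-Hochberg adjusted p = 0.0415). That call was lost without DMSO replicate 1, 2 or 3 (0.113, 0.131 and 0.121 in limma) and with scaling by library total. The log2 fold change of Nid1 was -0.51, and -0.30 without SAG replicate 3. Nid2 was not called in limma (adjusted p = 0.0520). It was called in limma without SAG replicate 3 (0.000366) and with scaling by library total (0.0172). On the recovered reads edgeR (adjusted p = 0.037) and DESeq2 (0.0188) also called Nid2. Of 4 genes that handle tropoelastin, Fkbp10, a collagen and elastin chaperone, was 1.24-fold lower (limma, Benjamini-Hochberg adjusted p = 0.0254), a call lost without DMSO replicate 1, 2 or 3 (0.133, 0.118 and 0.0842) and with scaling by library total (0.191); its log2 fold change of -0.31 was -0.48 with length and GC trends removed. Glb1, Neu1 and Ctsa, the elastin receptor complex, had log2 fold changes of -0.18 to -0.01 and none was called. Thus 1 of these 4 genes was called, against 29.6% of all tested genes.

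**Figure D5:**
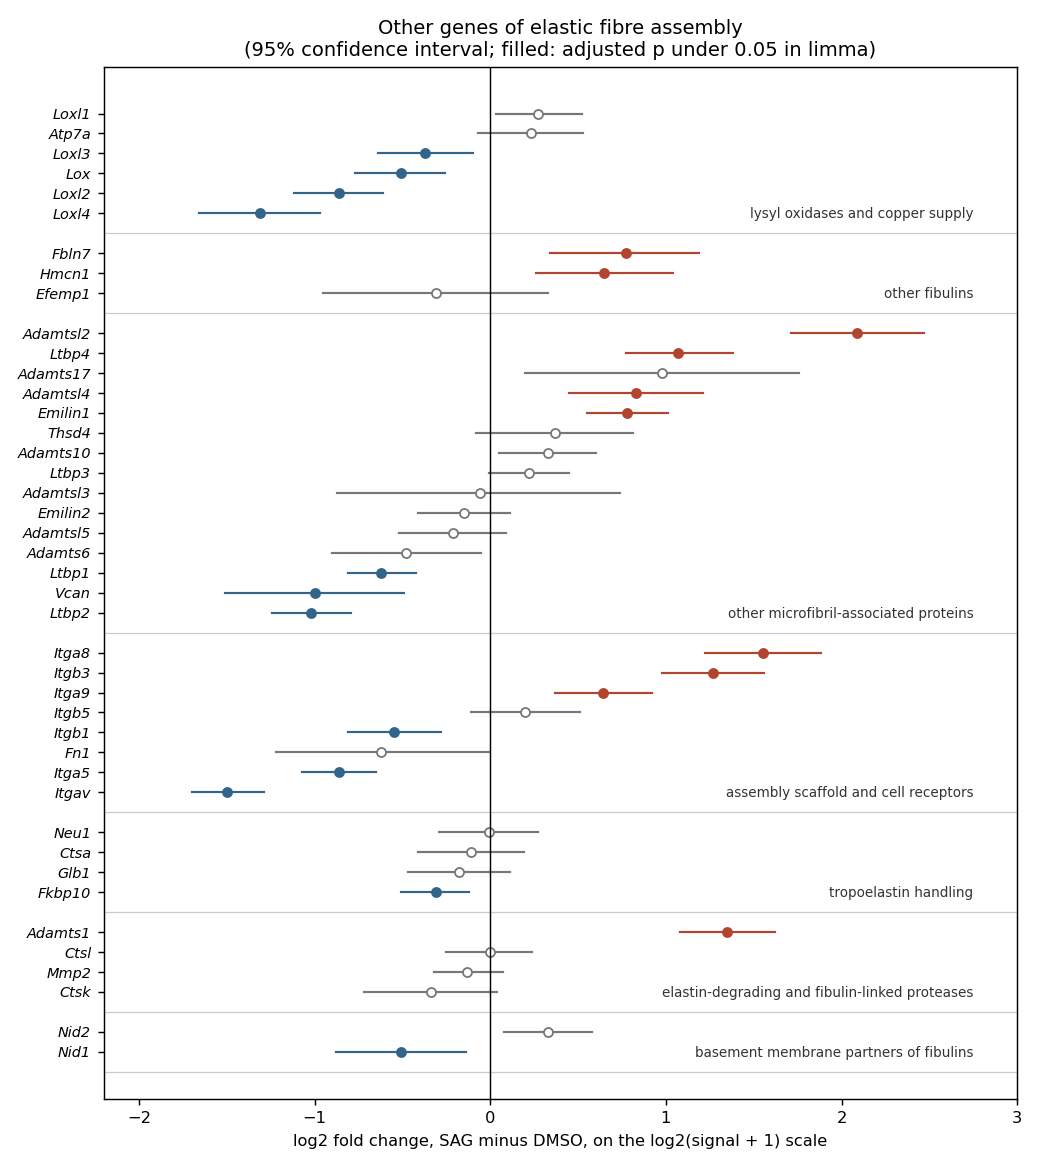
Log2 fold change of the 42 tested genes of the wider list, SAG minus DMSO, from log2(signal + 1), with 95% confidence intervals from limma, grouped by role; filled points were called at an adjusted p under 0.05. The values run from -1.50 for Itgav to 2.09 for Adamtsl2, and among the lysyl oxidases the 4 filled points lie below 0, of which Lox and Loxl3 are not called, and Loxl1 is called above 0, with scaling by library total.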

How the data were processed

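RNA-seq was done on 6 samples, 3 with SAG and 3 with DMSO. The submitters' processing notes name build GRCm38 (mm10), STAR, Trim Galore 0.6.4, edgeR under version 2.2.1 and featureCounts 2.0.0, with no roles; which annotation, strand setting and filters they used is not given in the sources used here. What the authors deposited is 1 table of a signal per gene symbol, named CPM, whose column sums ran from 932712 to 1055620. In each column 100% of values were whole multiples of 1 step within 0.01, which gave back whole reads. Columns were matched to samples by treatment and replicate number, and 92 spike-in rows were left out.

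Log2(signal + 1) was tested for 12550 genes, those whose signal averaged 1 or more, in limma 3.58.1 (R 4.3.3; eBayes with trend, group as the only term), with Benjamini-Hochberg adjustment over all tested genes. On this scale the change of low genes is understated, and folds given as -fold divide the mean signals. Ratios between members were compared by exact permutation over libraries. Alternatives were other pseudocounts, filters, scalings and limma settings, a replicate block, edgeR 4.0.16 and DESeq2 1.42.0 on the recovered reads, thinned DMSO reads, length and GC trends removed, and each library left out. The order of members per kilobase without SAG replicate 3 and the mesenchyme marker sum without collagens were chosen after seeing the data. Coordinates and lengths are from GENCODE M21 on GRCm38, matched by symbol. Promoter windows are RefSeq's, the first listed per gene. No counting intervals are given: the sources name no molecular identifiers, so reads may repeat molecules.

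The members, the wider list and the marker lists (peritubular myoid and vascular smooth muscle, interstitial mesenchyme, fetal Leydig, Sertoli, germ, endothelial, macrophage, erythroid and surface epithelial cells) were chosen with earlier results of these data known. Named were all members, the called genes of the wider list and up to 4 per group with the smallest p, and Gli1 as the check of the treatment.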

Additional observations from a re-analysis of the deposited data

Results flagged for a closer look

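Reads on synthetic spike-in RNAs, which enter none of the comparisons above, numbered 111, 54 and 1205 in SAG replicates 1 to 3 and 0 in each DMSO library; the labels do not mention spike-ins. They were at most 0.0157% of a library's reads. These counts drew attention because they were above 0 in the SAG libraries only, and SAG replicate 3, with the most, is also the library in which Eln was highest. That library also had the highest SAG signal for Mfap2 and Fbln1 and the lowest SAG signal for the other members. Like depth, the spike-in reads split along the treatment groups. A difference in library handling between the groups therefore cannot be told apart from the treatment, and its part in the results was not tested.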

How the results depend on the processing

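Of the 10 genes, Eln, Fbn1, Mfap2, Mfap5, Mfap4, Fbln1 and Fbln2 kept their direction and their call in all 21 alternatives at the same threshold, and at an adjusted p of 0.01. Fbn2 was called in 17 of the 21. Fbln5 was called in 0 of 21, and its log2 fold change of -0.10 turned to 0.05 with scaling by library total, 0.04 with length and GC trends removed, 0.04 with those and a replicate block, and 0.01 without SAG replicate 3; the cause was not tested. Leaving out 1 library at a time gave -0.18 (without SAG replicate 2) to 0.01. The number of these genes called was 7 to 9 in every alternative (8 as reported), and that of the wider list 16 to 32 (22 as reported), lowest without DMSO replicate 1 and at a threshold of 0.01, and highest without SAG replicate 3. Over all genes 3709 were called, 1837 at a threshold of 0.01 by construction, and 1987 (without DMSO replicate 3) to 5836 (without SAG replicate 3) with each library left out in turn; leaving out DMSO replicates 1 and 2 gave 2023 and 2105. The 4 log2 ratios kept their sign in each of the 10 alternatives run for them, that of Fbln5 over Efemp2 at 0.04 to 0.19; removing length and GC trends was not run for the ratios. Whether same-numbered libraries are paired is not stated. Correlations of their deviations from their group means were -0.0231 to 0.0332, and not every library correlated best with its own number. These correlations cannot exclude a pairing, as they rest on 3 libraries per group and SAG replicate 3 stood apart. With a replicate block 8 of the 10 genes, 21 of the wider list and 3525 of all genes were called; Loxl3 (0.0516) and Fkbp10 (0.0641) were no longer called and Fn1 (0.0483) was, by limma's adjusted p. Depth limits Mfap5 most, which had 16 reads in SAG replicate 3.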
